A study of Mus musculus with 2 samples.

Results

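Gas5 and 6 members of the Snhg family (Snhg1, Snhg3, Snhg5, Snhg6, Snhg8 and Snhg12) are noncoding genes that carry small nucleolar RNAs (snoRNAs) in their introns. These 7 genes were chosen by symbol, out of 24421 gene symbols measured by bulk RNA-seq in granulocyte-monocyte progenitors (GMPs), the bone marrow cells that give rise to granulocytes and monocytes. GMPs were sorted by flow cytometry from female non-tumor-bearing (NTB) mice and from female mice carrying orthotopic tumors of the mammary carcinoma line 4T1. Per the labels, the mice of both groups were F1 animals with a mixed H-2b/d background; no age or number of pooled mice is given there. Each group was represented by a single library, NTB-GMP or 4T1-GMP. There is therefore no replicate check on any difference below, and the intervals given cover counting error only. Reads without molecular identifiers are not independent molecules, so the intervals may be too narrow even for counting error. Of the 7 genes, 5 differed by less than 1.5-fold between the libraries, whereas Gas5 was 1.51-fold lower in 4T1-GMP, and Snhg3 was 1.61-fold higher.

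A snoRNA is cut out of the intron of its host after splicing. Box C/D snoRNAs guide 2′-O-methylation of ribosomal and other RNAs, and box H/ACA snoRNAs guide the conversion of uridine to pseudouridine. The spliced exons of these hosts have little or no protein-coding potential. Their promoters often resemble those of ribosomal protein genes, with a pyrimidine tract at the start of the RNA (a 5′ terminal oligopyrimidine, or TOP, tract), and several of the spliced RNAs are broken down by nonsense-mediated decay while they are being translated. Gas5 takes its name (growth arrest-specific 5) from its accumulation in cells that stop growing.

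The GENCODE M21 annotation of GRCm38, the build that the labels call mm10, places 27 snoRNA loci inside these genes, on the same strand. Gas5 (chromosome 1, 161034422 to 161038539, plus strand) holds 9 of them and Snhg1 (chromosome 19, 8723475 to 8726443, plus strand) holds 8. Snhg12 (chromosome 4, 132308623 to 132311024, plus strand) holds 4, whereas Snhg3 (chromosome 4, 132348014 to 132353686, minus strand) and Snhg5 (chromosome 9, 88521050 to 88522929, minus strand) hold 2 each. Snhg6 (chromosome 1, 9941959 to 9944118, minus strand) and Snhg8 (chromosome 3, 123507552 to 123508404, minus strand) hold 1 each. For each gene the spliced transcript with the most snoRNA loci wholly in introns was chosen. All 27 loci lie in introns of these transcripts, an outcome that the choice favors. Exons of other transcripts cover some loci, with 77 bases of Snord47 in Gas5 and 126 bases of Snord22 in Snhg1 as examples. In the chosen transcripts, 23 of the 27 loci end 65 to 81 bases before the next exon, with a median of 75 bases over all loci. A box D motif (CTGA) stands within the last 16 bases of 21 of the loci, and 16 of these also have the box C core TGATGA within the first 20 bases. The ACA trinucleotide of box H/ACA snoRNAs stands exactly 3 bases from the 3′ end of 5 others. By these motifs and by name, Gas5, Snhg1, Snhg5 and Snhg6 host box C/D snoRNAs, Snhg3 and Snhg8 host box H/ACA snoRNAs, and Snhg12 hosts both kinds.

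**Figure D1:**
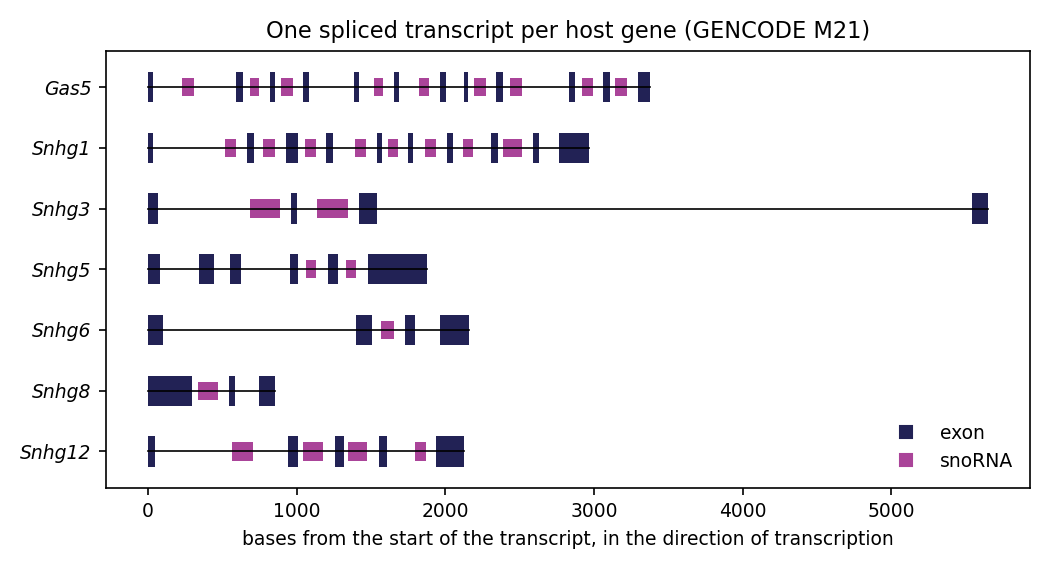
Exons (dark bars) and snoRNA loci (purple bars) of 1 spliced GENCODE M21 transcript per host gene, drawn to scale in bases from the start of the transcript. The transcript with the most snoRNA loci wholly in introns was drawn, and every snoRNA lies between its exons, with 9 in Gas5 and 1 each in Snhg6 and Snhg8.

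The starts of the host genes are shown because the genes share features there that the choice by symbol did not use. RefSeq promoter sequences of GRCm38.p6 were found for 6 of the 7 genes, with 7 annotated starts in all, since Gas5 has an upstream and a downstream start. Each sequence below runs from 40 bases before the annotated start to 30 bases from it. Capitals mark the letters TATA, searched from 40 to 16 bases before the start (the same on both strands), and the longest run of at least 5 C or T on the transcribed strand, searched from 5 bases before the start to 20 after it.
Gas5, downstream start (chr1:161035126-161035195, plus strand): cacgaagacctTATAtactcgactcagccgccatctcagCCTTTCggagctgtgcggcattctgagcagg
Snhg1 (chr19:8723447-8723516, plus strand): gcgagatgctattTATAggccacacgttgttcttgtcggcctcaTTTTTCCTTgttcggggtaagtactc
Snhg3 (chr4:132353657-132353726, minus strand): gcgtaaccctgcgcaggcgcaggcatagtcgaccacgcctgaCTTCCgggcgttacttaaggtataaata
Snhg5 (chr9:88522868-88522937, minus strand): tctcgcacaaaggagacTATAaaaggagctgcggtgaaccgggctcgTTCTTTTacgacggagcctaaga
Snhg8 (chr3:123508307-123508376, minus strand): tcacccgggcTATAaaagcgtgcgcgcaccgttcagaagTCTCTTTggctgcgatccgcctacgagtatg
Snhg12 (chr4:132308638-132308707, plus strand): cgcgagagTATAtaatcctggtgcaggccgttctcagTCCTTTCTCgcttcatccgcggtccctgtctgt
TATA was found at 5 of the 7 starts, 23 to 32 bases before the start, whereas 5.91% of 32851 RefSeq promoters held it in that window. A pyrimidine run of 5 to 9 bases was found at 6 of the 7 starts, whereas 16441 of the 32851 promoters held such a run. The run spans the annotated start at Gas5 (downstream start), Snhg8 and Snhg12. At Snhg3, Snhg1 and Snhg5 it begins 2, 4 and 7 bases after the annotated start, respectively. At the downstream start of Gas5 the run is CCTTTC, and at Snhg12 it is TCCTTTCTC. The upstream start of Gas5 held neither motif, and Snhg3 held the run only. The motifs and windows were chosen after the sequences had been read, so these counts describe the promoters and test nothing.

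The deposited values are RPKM, that is, reads scaled to the length of the gene and to the size of the library. Their digits allow the whole reads behind them to be recovered, with the smallest gene length that makes the reads of both libraries whole numbers. For Snhg3 this length was 437 bases, which is the spliced length of the transcript Snhg3-204, and for Snhg12 it was 606 bases, the spliced length of Snhg12-206. For Snhg8 it was 785 bases, which equals the RefSeq span of the gene from first to last base, with the intron that holds Snora24 included. For Gas5 it was 2554 bases, longer than the 851 bases covered by all of its spliced GENCODE transcripts together, and close to the 2556 bases of its longest transcript, which retains introns. The Gas5 value therefore covers intron sequence as well as the spliced exons. For Snhg1, Snhg5 and Snhg6 the smallest lengths were 476, 505 and 407 bases, and the true lengths may be multiples of these. A multiple would raise the reads given here by the same factor and narrow their intervals.

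All 7 genes were well above the minimum mean of 1 RPKM that was set for a gene to be compared, which 10378 genes passed. Gas5 had the highest level, with 189 RPKM in NTB-GMP (95% exact Poisson interval 184 to 195) and 125 RPKM in 4T1-GMP (interval 123 to 128). In NTB-GMP the next genes were Snhg1 at 73.7 RPKM, Snhg5 at 62.8 and Snhg8 at 55.3, and the intervals of neighbors in this order overlapped. Snhg12 (32.3 RPKM), Snhg6 (31.6) and Snhg3 (26.3) followed at lower levels, again with overlapping intervals between neighbors. In 4T1-GMP the order of the first 4 genes was the same, with Snhg1 at 79.0 RPKM, Snhg5 at 72.6 and Snhg8 at 62.2. There the interval of Snhg8 lay below that of Snhg5. Snhg3 came next at 42.4 RPKM, with an interval above those of Snhg12 at 31.0 and Snhg6 at 27.1, which overlapped. The lowest of the 7 genes in NTB-GMP, Snhg3, was above 76.1% of the genes compared, and Gas5 was above 97.7%. The 7 genes summed to 471 RPKM in NTB-GMP and to 440 in 4T1-GMP, and Gas5 made up 40.2% and 28.5% of these sums, respectively.

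**Figure D2:**
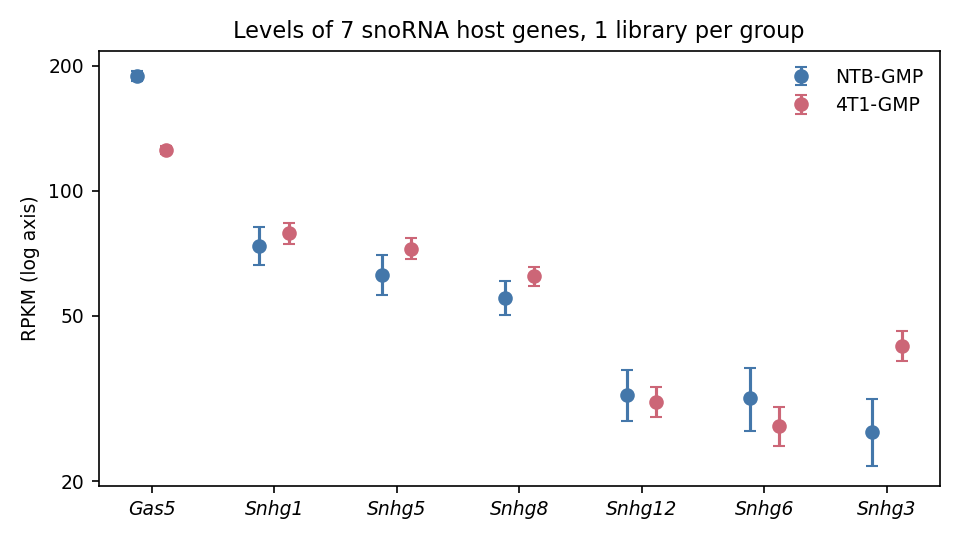
RPKM of each host gene in NTB-GMP (blue) and 4T1-GMP (red) on a log axis, with 95% exact Poisson intervals on the reads as bars. Gas5 lies above the other genes in both libraries, at 189 and 125 RPKM, and the intervals of Snhg3 (26.3 and 42.4 RPKM) do not overlap.

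Gas5, the host of 9 box C/D snoRNAs, was lower in 4T1-GMP, and Snhg3, the host of the U17 snoRNAs Snora73a and Snora73b, was higher. Gas5 had at least 4924 reads in NTB-GMP and, in the deeper 4T1-GMP library, at least 9615. Its log2 ratio of 4T1-GMP over NTB-GMP, computed on RPKM + 0.1, was -0.59, with a 95% Clopper-Pearson interval on the reads of -0.64 to -0.54. This interval spans the threshold of 1.5-fold (0.58 in size on the log2 scale), so Gas5 stands at the threshold rather than clearly past it. Its ratio was above that of 11.4% of the genes compared.

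Snhg3 had at least 117 reads in NTB-GMP against at least 556 in 4T1-GMP. Its log2 ratio was 0.69 (interval 0.40 to 0.99), above that of 93.0% of the genes compared. This interval also spans the 1.5-fold threshold. The intervals of Gas5 and Snhg3 did not overlap each other or that of any of the other 5 genes, whereas the intervals of these 5 all overlapped. The gene model of Snhg3 shares 135 exon bases on the same strand with Rcc1, which encodes an exchange factor for the small GTPase Ran, and 705 exon bases on the opposite strand with Gm17300. The strand setting of the counting is not given in the sources used here, so reads from shared bases cannot be assigned. Rcc1 is also annotated with 2 snoRNA loci in introns, and as the genes overlap, these may be the same loci as those of Snhg3. Rcc1 had 35.1 RPKM in NTB-GMP against 45.7 in 4T1-GMP, a log2 ratio of 0.38. When library sizes were taken without the ribosomal precursor RNA Rn45s, Snhg3 had a log2 ratio of 0.52, below the 1.5-fold threshold, and after quantile normalization it had 0.54.

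The other 5 genes were all within 1.5-fold. Snhg5, which hosts Snord50a and Snord50b, had a log2 ratio of 0.21 (interval 0.03 to 0.39), and Snhg8, which hosts Snora24, had 0.17 (interval 0.02 to 0.33). The interval of Snhg1, the host of Snord22 and 7 further box C/D snoRNAs, included 0 at a log2 ratio of 0.10 (interval -0.07 to 0.28). So did that of Snhg12 at -0.06 (interval -0.30 to 0.18) and that of Snhg6, the host of Snord87, at -0.22 (interval -0.52 to 0.08). Hosts of box C/D snoRNAs alone thus ran from -0.59 to 0.21, the hosts of box H/ACA snoRNAs stood at 0.17 and 0.69, and Snhg12, with both kinds, stood at -0.06.

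Over the 7 genes, 1 was at least 1.5 times lower in 4T1-GMP and 1 was at least 1.5 times higher. Of all 10378 genes compared, 11.6% were lower and 9.8% were higher by that fold, so the count in each direction was near the background. At a fold of 2 the counts were 0 lower and 0 higher, against 4.92% and 3.25% of all genes. The interval on the reads lay wholly above 0 for 3 of the 7 genes (Snhg3, Snhg5 and Snhg8), against 36.3% of all genes, and wholly below 0 for 1 (Gas5), against 28.0%. The median log2 ratio of the 7 genes was 0.10, beside 0.05 for all genes compared. As deposited, 4 of the 7 genes were higher in 4T1-GMP and 3 were lower, against 54.7% and 45.3% of all genes. Library sizes without Rn45s move every log2 ratio of RPKM by -0.16, and 3 of the 7 and 39.2% of all genes were then higher. After quantile normalization 1 of the 7, Snhg3, and 50.5% of all genes were higher. Gas5, Snhg3, Snhg6 and Snhg12 thus had the same direction under these scalings, whereas Snhg1 was lower under both and Snhg5 and Snhg8 were lower after quantile normalization.

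**Figure D3:**
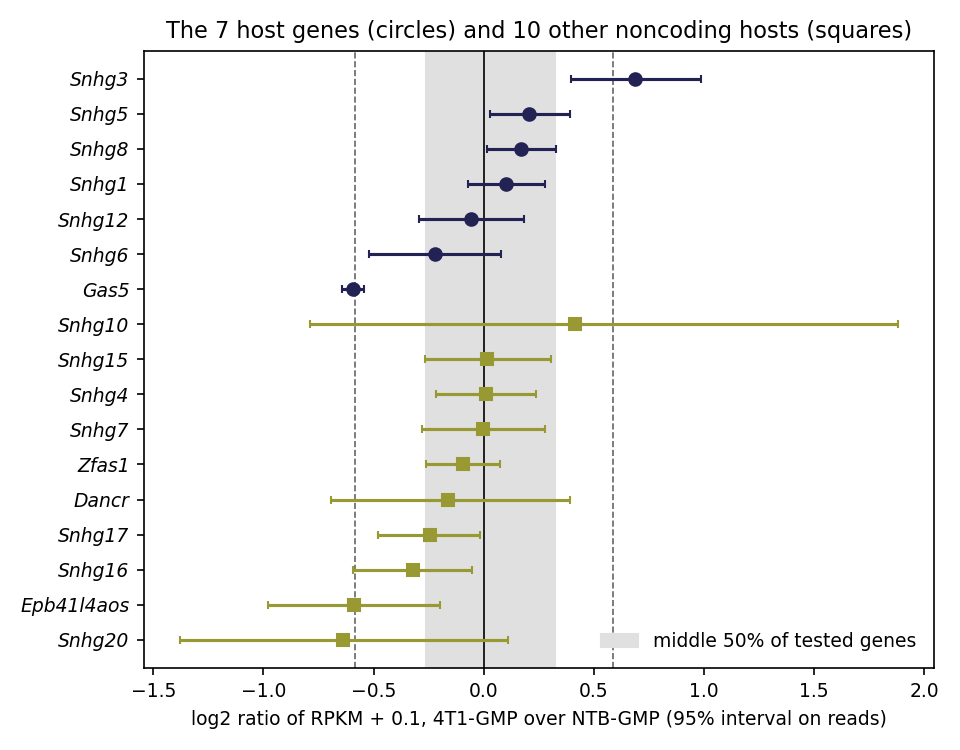
Log2 ratio of RPKM + 0.1 (4T1-GMP over NTB-GMP) with the 95% Clopper-Pearson interval on the reads for the 7 host genes (circles) and 10 other noncoding host genes (squares). The gray band is the middle 50% of all genes compared (-0.26 to 0.32) and the dashed lines mark 1.5-fold; Gas5 lies at the lower line and Snhg3 above the upper line.

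**Figure D4:**
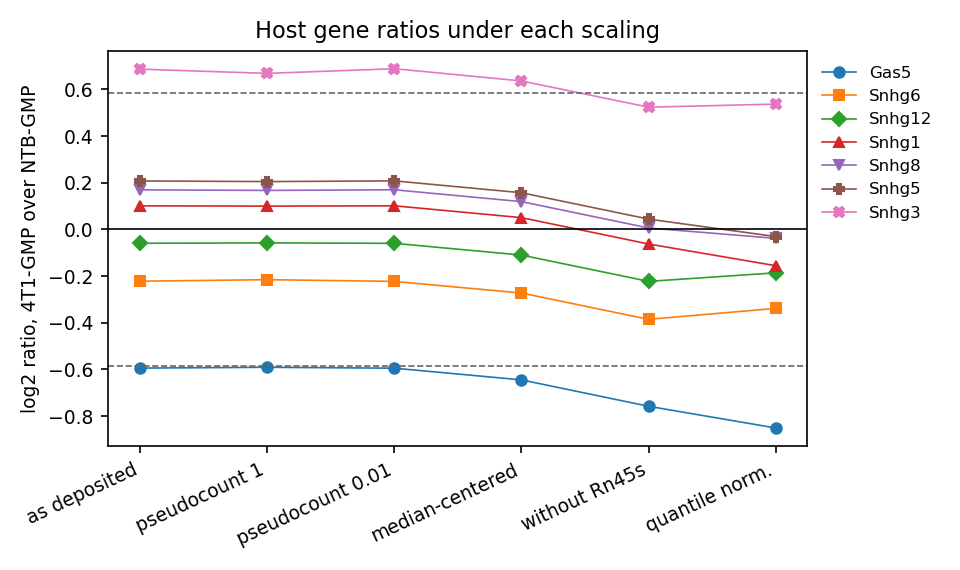
Log2 ratio of each host gene (4T1-GMP over NTB-GMP) as deposited and under 5 other pseudocounts or scalings; lines join the values of a gene, and dashed lines mark 1.5-fold. Gas5 stays lowest, from -0.59 to -0.85, and Snhg3 highest, with 0.52 and 0.54 in the settings that take it below the upper line.

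The snoRNAs inside the host genes were listed separately for 8 of the 27 loci, and 5 of the 8 had reads. Their sequences, from the GENCODE M21 transcripts, are given 5′ to 3′ on the plus strand because their values can be set beside those of their hosts. Capitals mark box C (TGATGA), box D (CTGA) and the ACA trinucleotide 3 bases from the 3′ end, where these exact letters were found.
Snord47 (chr1:161038082-161038158): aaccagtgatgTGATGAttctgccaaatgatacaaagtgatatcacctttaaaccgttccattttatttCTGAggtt
Snord22 (chr19:8725866-8725991): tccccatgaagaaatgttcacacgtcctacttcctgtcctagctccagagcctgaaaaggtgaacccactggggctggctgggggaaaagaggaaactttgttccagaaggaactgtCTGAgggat
Snord99 (chr4:132310691-132310764): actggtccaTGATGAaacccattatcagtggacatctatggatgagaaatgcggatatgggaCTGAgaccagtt
Snora16a (chr4:132309464-132309600): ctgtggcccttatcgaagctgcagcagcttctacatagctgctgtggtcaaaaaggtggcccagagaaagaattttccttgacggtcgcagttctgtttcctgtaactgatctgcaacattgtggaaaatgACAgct
Snora44 (chr4:132309941-132310069): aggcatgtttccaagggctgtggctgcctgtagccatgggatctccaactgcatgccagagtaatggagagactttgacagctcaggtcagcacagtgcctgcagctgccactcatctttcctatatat
Snord47, in intron 10 of Gas5, had 30.2 RPKM (20 reads) in NTB-GMP against 0.513 RPKM (1 read) in 4T1-GMP. The log2 ratio of these RPKM was -5.88, with a Clopper-Pearson interval of -11.26 to -3.24. Snord22, in intron 8 of Snhg1, had 201 RPKM (258 reads) in NTB-GMP against 54.7 RPKM (207 reads) in 4T1-GMP, a log2 ratio of -1.88 (interval -2.15 to -1.61). Its host Snhg1 stands beside this at a log2 ratio of 0.10, and the intervals of snoRNA and host did not overlap. Whether the length behind the Snhg1 value holds any intron sequence could not be settled from its multiples of 476 bases.

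Snhg12 hosts the other 3 snoRNAs with reads. Snord99 had 12.3 RPKM in NTB-GMP (7 reads) and 0 reads in 4T1-GMP, where a floor of 3 reads would be 1.78 RPKM, so that it was at least 6.88-fold lower by the reads as counted. The Clopper-Pearson interval of the log2 ratio, which also takes in the counting error of these 7 reads, ended at -2.09. Snora16a had 3.61 RPKM (5 reads) and 2.20 RPKM (9 reads), and Snora44 had 7.56 RPKM (9 reads) and 10.3 RPKM (36 reads). For both of these box H/ACA snoRNAs the interval of the log2 ratio included 0, from -2.44 to 1.21 for Snora16a and from -0.64 to 1.68 for Snora44. Snord87, Snora24 and Snora61 had 0 reads in both libraries. For the reads as counted, this allows up to 3.98, 2.27 and 4.75 RPKM in NTB-GMP, respectively. In 4T1-GMP it allows up to 1.35, 0.769 and 1.61 RPKM. Snora24 lies within the counted span of Snhg8, and how reads shared by such genes were counted is not given. Its 0 may therefore not limit its level. Over all 44 snoRNA genes with a mean of at least 1 RPKM, 37 were at least 1.5 times lower in 4T1-GMP, against the 11.6% of all genes given above, and the median log2 ratio was -1.91. A short gene can pass this minimum through a few reads in NTB-GMP alone, as Snord99 did, so the count and the median are descriptions that favor lower values. Without the minimum, all 110 snoRNA genes of the files summed to 1962 RPKM in NTB-GMP against 679.6 in 4T1-GMP. The Gas5 value covers introns that hold snoRNAs, and the part of snoRNA reads in its lower level was not tested.

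**Figure D5:**
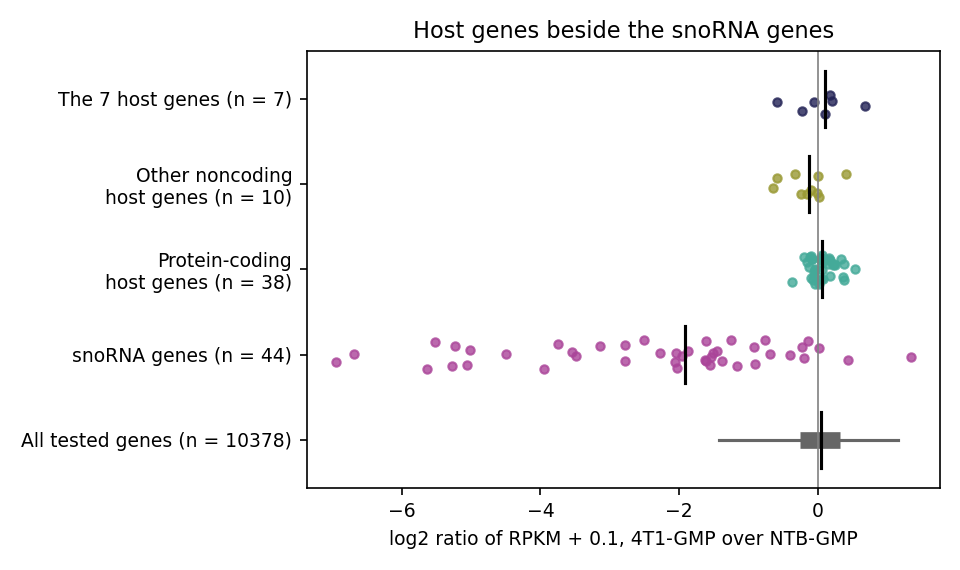
Log2 ratio of RPKM + 0.1 (4T1-GMP over NTB-GMP) for each of the 7 host genes, 10 other noncoding host genes, 38 protein-coding host genes and 44 snoRNA genes, with medians as vertical bars; for all 10378 genes the thick bar is the middle 50% and the line the middle 95%. The host genes lie close to 0, with medians of 0.10, -0.13 and 0.05, and the snoRNA genes reach far lower, with a median of -1.91. Short snoRNA genes can pass the minimum of 1 RPKM through a few reads in NTB-GMP alone, which favors lower values.

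A further list held 14 genes taken as noncoding snoRNA hosts, some of them under older symbols in the files, and 10 had a mean of at least 1 RPKM. Of these, 2 were at least 1.5 times lower in 4T1-GMP and 8 were within 1.5-fold, with a median log2 ratio of -0.13. The 2 were Snhg20, from 8.19 to 5.22 RPKM (log2 ratio -0.64, interval -1.38 to 0.11), and Epb41l4aos, from 19.3 to 12.8 RPKM (-0.59, interval -0.98 to -0.20). Snhg16 (log2 ratio -0.32) and Snhg17 (-0.25) were also lower, with intervals below 0. The intervals of the remaining 6 included 0, with log2 ratios of -0.16 for Dancr, -0.09 for Zfas1, -0.01 for Snhg7, 0.01 for Snhg4, 0.01 for Snhg15 and 0.41 for Snhg10. Snhg10 rested on 7 reads in NTB-GMP. Snhg9, Snhg11, Snhg14 and Snhg18 were below a mean of 1 RPKM. Of the 14, Snhg4, Snhg7, Snhg10 and Snhg20 were not among the genes with a GENCODE M21 snoRNA gene wholly in an intron. Snhg11 was annotated there as protein-coding.

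All 38 protein-coding host genes on the list were within 1.5-fold, and their median log2 ratio was 0.05. Most of these genes encode ribosomal proteins and translation factors. Eif4a1, an RNA helicase of translation initiation that hosts snoRNAs, was highest at a log2 ratio of 0.54, and Tpt1, which encodes the translationally controlled tumor protein, was lowest at -0.37. By annotation alone, 184 protein-coding genes with a snoRNA in an intron could be compared, with a median log2 ratio of 0.06. Of these, 13 (7.07%) were at least 1.5 times lower and 7 (3.8%) at least 1.5 times higher. These shares stand beside 11.6% and 9.8% of all genes compared. Apart from the 7 genes described here, 16 hosts of any annotated type other than protein-coding could be compared. Of these, 2 (12.5%) were lower by that fold and 0 higher, with a median of -0.20.

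Of 18 genes for the proteins of snoRNA particles and their assembly, 1 was past 1.5-fold. All 4 core proteins of box C/D particles were within 1.5-fold, from the methyltransferase gene Fbl, at 141 RPKM in both libraries, to Nhp2l1 (log2 ratio 0.43). The 4 core proteins of box H/ACA particles were also within 1.5-fold, from Gar1 (0.03) to Nhp2 (0.44). Of 10 assembly factors, 1 was past 1.5-fold, Znhit3, with 11.2 and 18.8 RPKM (log2 ratio 0.74), and the lowest was Znhit6 (-0.06). Of 16 genes of nonsense-mediated decay, 1 was higher by that fold and 1 was lower. These were Smg8, which encodes a regulator of the SMG1 kinase, from 10.7 to 16.8 RPKM (0.65), and Smg6, the decay endonuclease, from 22.4 to 12.7 RPKM (-0.81). The median of these 16 genes was -0.11. Among 15 regulators of TOP RNAs and of the growth kinase mTORC1, 0 were past 1.5-fold, with Eif4ebp1, a translation repressor that mTORC1 switches off, highest (0.40) and Tsc1, a brake on mTORC1, lowest (-0.55).

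The protein-coding genes that neighbor the host genes did not all share their direction. Zbtb37, which overlaps Gas5 on the opposite strand, had a log2 ratio of -0.37 (4.76 and 3.65 RPKM). Slc3a2, which lies 105 bases from Snhg1 on the opposite strand and encodes the heavy chain of amino acid transporters, stood at 0.03, and Wdr74 at 0.36. Around Snhg3, Rcc1 was higher and Phactr4 lower (-0.61). Syncrip and Zfp949 beside Snhg5 both stood at 0.03, and Trnau1ap beside Snhg12 at 0.20. Mcmdc2, which overlaps the end of Snhg6, had 1.27 and 0.835 RPKM, a log2 ratio of -0.55. It shares 127 exon bases with Snhg6 on the opposite strand, and reads from these bases cannot be assigned without the strand setting. Tcf24, Prss12, Ndst3 and Rab42 were below a mean of 1 RPKM. Among genes with a mean of at least 20 RPKM, the log2 ratios nearest to the median of the 7 host genes were those of D8Ertd738e, Lrrc58, Metap2, Psmg4 and Ybx3, each at 0.10; with 2 libraries, likeness is the agreement of this single number.

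The library sizes behind the RPKM came to 10180365 reads for NTB-GMP and, 2.95 times deeper, 30016263 for 4T1-GMP. Rn45s took 17.0% of the NTB-GMP size and 6.98% of the 4T1-GMP size. Marker lists were read by the same 1.5-fold rule and by their summed level in each library, NTB-GMP first. All 12 genes listed for GMPs and primary granules had a mean of at least 1 RPKM, with 5 higher, 4 lower and sums of 10771 and 16451 RPKM. Of 12 genes listed for mature neutrophils, not all of them granule genes, 11 were higher in 4T1-GMP (sums of 539 and 4097 RPKM). Of 10 monocyte and dendritic genes compared, 9 were lower (sums of 225 and 85.5 RPKM), as were 3 of 4 stem and early progenitor genes (62.4 and 23.5 RPKM) and 6 of 7 basophil, mast cell and eosinophil genes (1794 and 645 RPKM). Of the erythroid and megakaryocyte genes, 3 of 3 were lower (19.7 and 5.78 RPKM) and the globin genes Hba-a1, Hba-a2 and Hbb-bs were listed at 0. For B, T and NK cells the sums were 205 and 350 RPKM, with Cd3g listed at 0 and 1 of 2 genes compared higher. Of the genes listed for 4T1 carcinoma cells, Epcam, Krt14 and Trp63 were listed at 0, and the sums of 18.3 and 10.1 RPKM came almost wholly from Krt18 (12.8 and 8.90 RPKM) and Cdh1 (5.36 and 1.04 RPKM), both with the higher level in NTB-GMP. By the 1.5-fold rule 1 of these 2, Cdh1, was lower in 4T1-GMP. These marker levels moved between the same libraries as Gas5 and Snhg3, and their part in the host gene ratios was not tested. In bulk RNA, fewer cells of a type and less RNA per cell cannot be told apart, and with single libraries neither can the tumor and any other difference between the samples.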

How the data were processed

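Bulk RNA-seq of sorted GMPs was deposited by the authors as RPKM, scaled to the lengths of genes and the sizes of libraries. The submitters' processing notes name CASAVA 1.8.2, cutadapt 1.2.1, TopHat2 2.0.13, Picard 1.97, HTSeq 0.6.1 and edgeR 3.12.1, and the build mm10; annotation, gene lengths and strand setting are not given in the sources used here. Library sizes were found from small RNA genes of known RefSeq length, of which 69 of 71 (NTB-GMP) and 62 of 64 (4T1-GMP) gave whole reads. They are not whole numbers and so may include a scaling factor, and all 14833 symbols above 0 then gave whole reads. Recovery and intervals were tested on simulated data.

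Differences (4T1-GMP over NTB-GMP) are log2 ratios of RPKM + 0.1, a scale that understates differences of low genes, for genes with a mean of at least 1 RPKM. With 1 library per group no test was run; a 1.5-fold threshold, Clopper-Pearson intervals and exact Poisson intervals (95%) describe the libraries and cover counting error only. Named were the 7 genes, their annotated neighbors and snoRNAs with reads, all other noncoding hosts compared, the highest and lowest gene of each other fixed pathway list, the 5 genes nearest to the median ratio, Rn45s, and markers at 0 in both libraries; Krt18 and Cdh1 were named after their values were seen. A neighboring gene that this rule names is not reported here. The 7 genes and all lists were chosen with earlier results of these data known. Alternatives covered pseudocounts of 1 and 0.01, other minimum levels, a fold of 2, Rn45s left out, quantile normalization and median centering. Loci, transcripts and snoRNAs were taken from GENCODE M21, and promoters from RefSeq GRCm38.p6. Computations used Python 3.11.15, numpy 2.4.6, pandas 2.3.3 and scipy 1.17.1.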

Additional observations from a re-analysis of the deposited data

How the results depend on the processing

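Gas5 was at least 1.5 times lower under each of the 5 alternatives that can alter its ratio and kept the 1.5-fold threshold (other minimum levels change only the genes it is compared with). At a fold of 2, 0 of the 7 host genes were lower and 0 were higher. The count of host genes at least 1.5 times higher was 1 as deposited, 0 for library sizes without Rn45s and 0 after quantile normalization. The median log2 ratio of the 7 genes, 0.10 as deposited, was -0.06 without Rn45s and -0.16 after quantile normalization, beside -0.11 and 0.00 for all genes. Quantile normalization also reversed Snhg5 (-0.031) and Snhg8 (-0.038); the cause was not tested. Of 35 values of single genes under these 5 alternatives, 28 stayed within the counting interval and 4 changed sign. The sign changes were those of Snhg5 and Snhg8 and, with an interval that included 0 as deposited, Snhg1 with Rn45s omitted (-0.06) and after quantile normalization. Besides the 2 reversed values, 5 lay outside their interval, namely Gas5 with Rn45s omitted (-0.76), after quantile normalization (-0.85) and after median centering (-0.64), Snhg8 with Rn45s omitted (0.01) and Snhg1 after quantile normalization (-0.16). The share of all genes at least 1.5 times higher ran from 5.73% with Rn45s omitted to 11.9% with all genes above 0. Among the 7 genes, counting error was widest for Snhg6 and Snhg3, with 131 and 117 reads in NTB-GMP. No paired analysis was possible because NTB-GMP and 4T1-GMP were single libraries, and no replicate could be left out.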
